A study of Mus musculus with 9 samples.

Results

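The receptor tyrosine kinase genes, *Kit*, *Ltk*, *Ddr1*, *Igf1r* and *Insr*, 5 in number, were examined out of the 24060 genes measured by RNA-seq in CD8 T cells of 3 transnuclear mouse clones. *Kit*, *Ltk* and *Ddr1* were picked from these same data because their levels differed between clones, so their levels are given as a description, with no test. *Igf1r* and *Insr* were taken as expressed relatives and were tested. The clones are the mouse lines Rop7-I, Rop7-II and Rop7-III, each derived by nuclear transfer from a single CD8 T cell, whose rearranged T-cell receptor (TCR) genes its mice inherit. T cells of these mice can also rearrange further TCR genes, so that not every T cell of a line binds the antigen. The 3 TCRs differ, but all recognize the Rop7 peptide of *Toxoplasma gondii* on H-2Ld. The lines had been backcrossed to BALB/c, and the donors of the RNA are described as homozygous for the TCR chains. Splenocytes that had seen no antigen were kept overnight with IL-2 in all groups, and CD8 T cells (CD3+ CD8+) positive for H-2Ld-Rop7 tetramer were sorted. Each clone had 3 biological replicates, which makes 9 samples. The age and sex of the mice are not given in the sources used here. Each clone is 1 line, so the TCR, the donor nucleus and any other inherited difference between lines cannot be told apart.

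A receptor tyrosine kinase spans the cell membrane, binds a ligand outside the cell and phosphorylates tyrosines inside it, on which adaptor proteins such as Shc1 and Grb2 assemble. Kit, the receptor for stem cell factor, is best known in blood progenitors, mast cells and some innate lymphoid cells. Ltk is a close relative of Alk, Ddr1 is a receptor for collagen, and Igf1r and Insr bind insulin-like growth factors and insulin, which in T cells feed into growth and nutrient uptake.

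The sorted samples carried the transcripts that define CD8 T cells. All 8 markers of this list (*Cd3e*, *Cd3d*, *Cd3g*, *Cd8a*, *Cd8b1*, *Lck*, *Zap70* and *Lat*) were tested, and their summed level was 7059 to 7366 TPM for Rop7-I, 7628 to 8035 TPM for Rop7-II and 7182 to 7312 TPM for Rop7-III. TPM is a relative transcript level, corrected for the length of the gene and with an equal total in each sample, so levels of different genes can be set side by side. Other cells were also present. B-cell markers summed to 756 TPM for Rop7-II replicate 1 against 56.4 to 337 TPM in the other 8 samples, and myeloid and dendritic-cell markers to 754 TPM against 144 to 306 TPM. The 4 erythroid markers summed to 295 to 1544 TPM for Rop7-I, 26.2 to 190 TPM for Rop7-II and 45.5 to 389 TPM for Rop7-III. In such bulk samples, fewer cells of a type and less RNA per cell cannot be told apart.

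The *Kit*, *Ltk* and *Ddr1* genes lie on different chromosomes. On GRCm38, the build of the deposited values (mm10), *Kit* spans chr5:75574916-75656722 on the plus strand, *Ltk* chr2:119751320-119760431 on the minus strand and *Ddr1* chr17:35681567-35704621 on the minus strand. *Igf1r* spans chr7:67952827-68233668 on the plus strand and *Insr* chr8:3122061-3279617 on the minus strand. Reads were counted without regard to strand. No annotated gene overlaps *Kit*, *Ltk* or *Igf1r*, and those that overlap *Ddr1* (*Gm23864* and *Gm4577*) or *Insr* (*Vmn2r-ps88* and *Gm16180*) were not among the tested genes. The 250 bases before the first RefSeq start of the 3 genes picked for clone differences are shown 5′ to 3′ along the gene's own strand. They come from RefSeq on GRCm38.p6, at chr5:75574737-75574986, chr2:119758526-119758775 and chr17:35704600-35704849. RefSeq listed 2 starts for *Kit*, 1 for *Ltk* and 4 for *Ddr1*, of which the first listed was taken. The *Ltk* window lies wholly inside the *Ltk* span given above, so it is not the sequence before that span. The windows of *Kit* and *Ddr1* overlap the first bases of their spans. Capitals mark matches to any of 4 short motifs searched on both strands.
Kit: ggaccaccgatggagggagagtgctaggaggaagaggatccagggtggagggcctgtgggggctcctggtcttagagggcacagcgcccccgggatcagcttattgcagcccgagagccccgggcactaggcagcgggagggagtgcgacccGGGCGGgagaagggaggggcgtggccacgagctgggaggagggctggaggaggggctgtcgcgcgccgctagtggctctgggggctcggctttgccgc
Ltk: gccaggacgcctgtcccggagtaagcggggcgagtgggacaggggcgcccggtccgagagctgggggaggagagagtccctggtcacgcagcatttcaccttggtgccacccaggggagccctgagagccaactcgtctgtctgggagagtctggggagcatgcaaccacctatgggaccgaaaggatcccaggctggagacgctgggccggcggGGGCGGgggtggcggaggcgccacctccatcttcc
Ddr1: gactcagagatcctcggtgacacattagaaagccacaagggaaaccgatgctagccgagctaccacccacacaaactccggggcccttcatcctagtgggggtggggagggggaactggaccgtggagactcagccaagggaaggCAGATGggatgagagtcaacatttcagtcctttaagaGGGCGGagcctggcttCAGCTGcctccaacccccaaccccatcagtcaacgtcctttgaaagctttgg

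The *Kit* and *Ltk* windows were rich in G and C (70.8% and 68.8%), beside 56.8% in *Ddr1* and a median of 52.4% over 32851 promoters of 27025 genes. Each of the 3 held 1 GC box, spelled GGGCGG, a motif found in 32.7% of all promoters of this length. *Ddr1* also held 2 E-boxes, spelled CANNTG, a motif in 66.2% of promoters. No match was found for the Runx motif TGTGGT (14% of promoters) or for the GATA motif AGATAA (9.99%), which says only that these letters are not in these windows.

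*Kit* was nearly silent in Rop7-I and expressed in both other clones. Its level was 0.05, 0.08 and 0.03 TPM for Rop7-I replicates 1 to 3, 10.32, 10.5 and 8.88 TPM for Rop7-II, and 12.72, 12.15 and 10.54 TPM for Rop7-III. All Rop7-I values lay within a few steps of 0.01 TPM, the smallest value above 0 that the deposited table lists, and every Rop7-III value exceeded every Rop7-II value by a narrow margin. The means were 0.0533 ± 0.0252 TPM (SD, n = 3), 9.90 ± 0.888 TPM and 11.8 ± 1.13 TPM. Without any TPM added, the mean in Rop7-III was 221 times that in Rop7-I, and the mean in Rop7-II was 186 times it, ratios that rest on a denominator close to the resolution of the table. Mean log2 levels were 0.07 ± 0.03, 3.44 ± 0.12 and 3.67 ± 0.13 with 1 TPM added, and -2.72 ± 0.24, 3.32 ± 0.13 and 3.57 ± 0.14 with 0.1 TPM added. The size on a log scale therefore depended on the amount added before the logarithm. The log2 difference of Rop7-III minus Rop7-I was 3.60 with 1 TPM added and 6.29 with 0.1 TPM added, and that of Rop7-I minus Rop7-II was -3.37 and -6.04. The difference of Rop7-III minus Rop7-II was 0.23 with 1 TPM added and 0.25 with 0.1 TPM added.

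*Ltk* was highest in Rop7-III. Its level was 5.01, 5.89 and 5.04 TPM for Rop7-I, 5.69, 3.39 and 3.64 TPM for Rop7-II, and 12.12, 13.81 and 13.34 TPM for Rop7-III. The Rop7-III samples stood above all others, whereas Rop7-I and Rop7-II overlapped, with Rop7-II replicate 1 inside the Rop7-I range. The means were 5.31 ± 0.50 TPM, 4.24 ± 1.26 TPM and 13.1 ± 0.872 TPM (SD, n = 3 each), so Rop7-III was 3.09 times Rop7-II and 2.46 times Rop7-I. Mean log2 levels were 2.66, 2.36 and 3.81 with 1 TPM added, and 2.43, 2.08 and 3.72 with 0.1 TPM added. On the log2 scale with 1 TPM added, Rop7-III differed by 1.45 from Rop7-II and by 1.16 from Rop7-I. With 0.1 TPM added, these differences were 1.64 and 1.29. Rop7-I minus Rop7-II was 0.29 with 1 TPM added and 0.35 with 0.1 TPM added.

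*Ddr1* was highest in Rop7-II, but its replicates disagreed. The level was 4.03, 3.7 and 4.51 TPM for Rop7-I, 18.34, 5.65 and 23.17 TPM for Rop7-II, and 2.08, 2.77 and 2.32 TPM for Rop7-III. No pair of clones overlapped, with Rop7-III lowest throughout, yet Rop7-II replicate 2 lay much closer to the Rop7-I samples than to the other replicates of its own clone. The means were 4.08 ± 0.407 TPM for Rop7-I, 15.7 ± 9.05 TPM for Rop7-II and 2.39 ± 0.350 TPM for Rop7-III (SD, n = 3 each). Rop7-II was 6.58 times Rop7-III. Mean log2 levels were 2.34, 3.87 and 1.76 with 1 TPM added, and 2.06, 3.76 and 1.31 with 0.1 TPM added. With 1 TPM added, the log2 difference was -2.11 for Rop7-III minus Rop7-II, -0.59 for Rop7-III minus Rop7-I and -1.53 for Rop7-I minus Rop7-II. With 0.1 TPM added, these values were -2.45, -0.75 and -1.70. Without Rop7-II replicate 2, Rop7-III minus Rop7-II was -2.68 and Rop7-I minus Rop7-II was -2.09 with 1 TPM added, and leaving out each sample in turn gave -2.68 to -1.75 and -2.09 to -1.16.

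*Igf1r* and *Insr* had the 2 highest means of the receptor tyrosine kinase transcripts over the 9 samples, although *Ephb6* exceeded *Insr* in all 3 Rop7-III samples and in Rop7-II replicate 2. No difference between clones passed the test in either gene. *Igf1r* stood at 60.14, 57.53 and 66.29 TPM for Rop7-I, 49.48, 59.89 and 57.35 TPM for Rop7-II, and 55.84, 60.91 and 53.33 TPM for Rop7-III. The 3 clones overlapped in every pair, with means of 61.3 ± 4.50, 55.6 ± 5.43 and 56.7 ± 3.86 TPM (SD, n = 3 each). Differences were tested with limma, which was fitted to log2(TPM + 1) of the 12115 genes over 1 TPM in at least 1 sample. Rop7-III minus Rop7-II was 0.03 (95% interval -0.15 to 0.21, limma adjusted p = 0.808, exact permutation p = 0.800, two-sided). Rop7-III minus Rop7-I was -0.11 (-0.29 to 0.07, limma adjusted p = 0.412, exact permutation p = 0.300), and Rop7-I minus Rop7-II was 0.14 (-0.04 to 0.32, limma adjusted p = 0.267, exact permutation p = 0.200). None of these passed the limit of an adjusted p of 0.01. Each interval lies within a difference of less than 2-fold.

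*Insr* stood at 38.13, 38.24 and 40.99 TPM for Rop7-I, 36.94, 34.16 and 36.33 TPM for Rop7-II, and 38.39, 38.32 and 41.29 TPM for Rop7-III. The Rop7-II samples were all below those of both other clones, which overlapped each other. The means were 39.1 ± 1.62, 35.8 ± 1.46 and 39.3 ± 1.69 TPM (SD, n = 3 each). The log2(TPM + 1) difference of Rop7-III minus Rop7-II was 0.13 (95% interval 0.02 to 0.25, limma p = 0.0278 before adjustment and 0.0885 after it, exact permutation p = 0.10). That of Rop7-I minus Rop7-II was 0.12 (0.01 to 0.24, limma adjusted p = 0.125, exact permutation p = 0.10) and that of Rop7-III minus Rop7-I was 0.01 (-0.11 to 0.12, limma adjusted p = 0.941, exact permutation p = 0.50). With 3 samples against 3, the exact test cannot go below 0.10, and no *Insr* difference passed after adjustment over the 12115 genes tested. Mean log2 levels of *Igf1r* in Rop7-I, Rop7-II and Rop7-III were 5.96, 5.82 and 5.85 with 1 TPM added and 5.94, 5.79 and 5.83 with 0.1 TPM added. Those of *Insr* were 5.33, 5.20 and 5.33, and 5.29, 5.17 and 5.30.

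**Figure D1:**
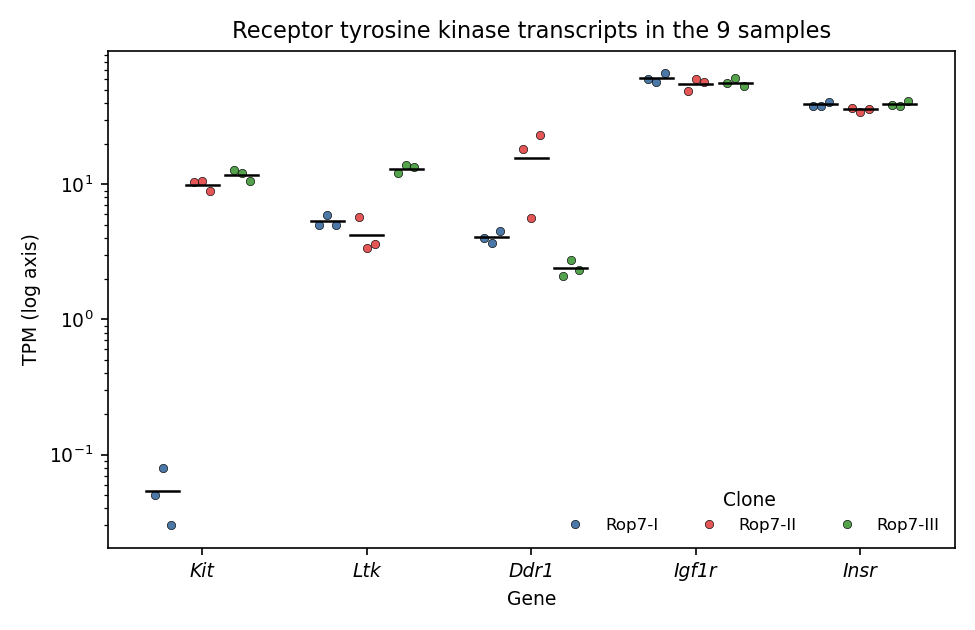
Level of 5 receptor tyrosine kinase genes in TPM (vertical log axis) in each of the 9 samples. Points are samples, coloured by clone in order of replicate number, and lines are clone means. *Kit* falls below 0.1 TPM in the Rop7-I samples alone, *Ltk* is highest in Rop7-III, and Rop7-II replicate 2 at 5.65 TPM lies apart from the other Rop7-II values of *Ddr1*.

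**Figure D2:**
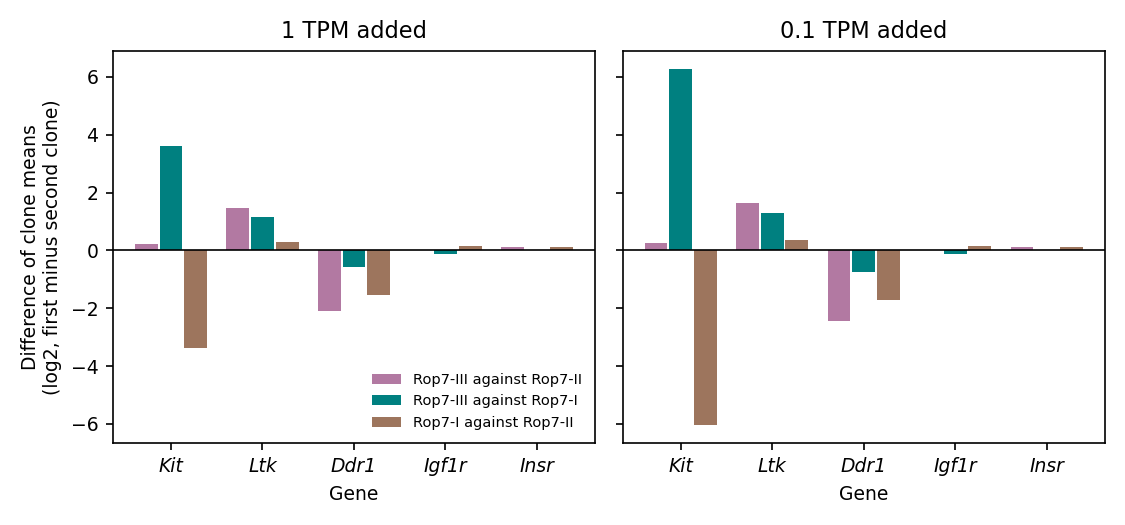
Log2 difference between clone means of 5 receptor tyrosine kinase genes (vertical axis, first minus second clone), with 1 TPM added on the left and 0.1 TPM added on the right. Bars start at 0 and show no error. *Kit* between Rop7-III and Rop7-I grows from 3.60 to 6.29, whereas the bars of *Igf1r* and *Insr* stay near 0 on both scales.

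Between Rop7-III and Rop7-II, the samples of the 2 clones did not overlap for 4 of the 5 genes, between Rop7-III and Rop7-I for 3 and between Rop7-I and Rop7-II for 3. Over all tested genes, 40.7%, 38.2% and 35.0% did not overlap in these pairs. Since 3 of the 5 were picked for clone differences, nothing is read from these counts.

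The family as a whole was sparsely expressed. Of 58 mouse receptor tyrosine kinase genes, 16 exceeded 1 TPM in at least 1 sample and were tested, 11 were listed at 0 in every sample and 31 were above 0 without passing that limit. By mean TPM over the 9 samples the order was *Igf1r* (57.9), *Insr* (38.1), *Ephb6* (29.3), *Lmtk2* (28.8), *Tyro3* (9.47), *Ltk* (7.55), *Ddr1* (7.40) and *Kit* (7.25), of which the last 3 lie closer together than their own spread over samples. *Igf1r* and *Insr* were chosen as expressed genes, and the mean of *Kit* joins a level near 0 in Rop7-I with about 10 TPM in the other clones. All 58 together summed to 176 to 189 TPM for Rop7-I, 218 to 238 TPM for Rop7-II and 230 to 238 TPM for Rop7-III, and *Igf1r* and *Insr* made up 36.3 to 56.8% of that sum in a sample. The 53 genes other than the 5 members summed to 69.1 to 72.0 TPM for Rop7-I, 105 to 117 TPM for Rop7-II and 109 to 117 TPM for Rop7-III. Rop7-I was lowest with no overlap, and *Ephb6* was the most abundant of these genes by mean and lowest in Rop7-I. *Kit* took up 0.0159 to 0.0453% of the family's TPM for Rop7-I, 3.78 to 4.81% in Rop7-II and 4.44 to 5.53% in Rop7-III. *Ephb6* took up 4.47 to 5.19%, 13.8 to 16.5% and 18.4 to 20.3%.

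Some relatives of these genes were scarce or absent. *Alk*, the sister gene of *Ltk*, was listed at 0 in all 9 samples, and *Ddr2*, the other collagen receptor, reached at most 0.07 TPM. *Pdgfra* and *Kdr*, which flank *Kit* on the same chromosome, had means of 0.00889 and 0.0567 TPM, whereas *Csf1r* and *Pdgfrb*, relatives of *Kit* in the same receptor class that are described further on, exceeded 1 TPM. *Insrr*, the third gene of the insulin receptor group, reached at most 0.07 TPM.

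Ligand transcripts were nearly missing from the sorted cells. None of the 13 ligand genes listed for these receptors exceeded 1 TPM in any sample. *Kitl*, which encodes stem cell factor, was at or below 0.06 TPM, both *Ltk* ligand genes (*Fam150a* and *Fam150b*) and both insulin genes were listed at 0 in every sample, and *Igf1* was at or below 0.18 TPM. The highest was the collagen gene *Col1a1*, a *Ddr1* ligand, at 0.73 TPM for Rop7-I replicate 1.

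Among the 55 receptor tyrosine kinases other than *Kit*, *Ltk* and *Ddr1*, 13 were tested and 2 were called in some pair of clones. Calls required a limma adjusted p under 0.01 together with a difference of 2-fold or more on the log2(TPM + 1) scale. Between Rop7-III and Rop7-II, 0 were called higher and 1 lower, against 0.966% and 0.735% of all tested genes. Between Rop7-III and Rop7-I, 1 was called higher and 0 lower, against 0.611% and 0.446%. Between Rop7-I and Rop7-II, 0 were called higher and 1 lower, against 0.437% and 0.512%. The counts are too small to be set apart from these shares. Without the fold limit, 2, 2 and 1 of the 13 had an adjusted p under 0.01 (2, 4 and 1 in fits to the 2 clones compared), where 12.3%, 4.85% and 7.53% of all tested genes did, and 8, 7 and 5 had an unadjusted p under 0.05, beside 37.8%, 28.0% and 32.1% of all tested genes. *Ephb6* between Rop7-III and Rop7-II and *Fgfr1* between Rop7-III and Rop7-I, both under 2-fold, lost this status in 5 and 4 of the 9 fits that left out 1 sample. The samples did not overlap for 10, 11 and 4 of the 13 (76.9%, 84.6% and 30.8%), beside the 40.7%, 38.2% and 35.0% of all tested genes given above. The median log2 difference of the 13 was 0.16, 0.09 and -0.02, beside -0.02, -0.00 and -0.01 over all tested genes.

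*Ephb6*, an ephrin receptor whose kinase domain is inactive, had the same order of clones as *Kit* but, unlike *Kit*, was clearly present in Rop7-I. Its level was 7.89, 7.93 and 9.8 TPM for Rop7-I, 32.79, 35.99 and 32.65 TPM for Rop7-II, and 45.19, 43.64 and 48.14 TPM for Rop7-III. The 3 clones did not overlap, and Rop7-I was lowest, as for *Kit*. The log2(TPM + 1) difference was 2.29 (SE 0.08, limma adjusted p = 1.28e-06) for Rop7-III minus Rop7-I and -1.87 (SE 0.08, limma adjusted p = 1.48e-06) for Rop7-I minus Rop7-II. Both calls remained with each of the 9 samples left out in turn. Rop7-III exceeded Rop7-II by 0.42, which is less than 2-fold. The gene lies on chromosome 6, 65.6 kb from *Trbc1*, a constant gene of the TCR beta locus. Its neighbour *Trpv6*, a calcium channel gene 0.115 kb away, was 0.46, 0.19 and 0.43 TPM for Rop7-I, 1.3, 1.35 and 1.15 TPM for Rop7-II and 1.79, 1.67 and 2.21 TPM for Rop7-III. *Trpv6* was called between Rop7-III and Rop7-I (log2 difference 1.09, limma adjusted p = 0.00228), and it lost the call without Rop7-I replicate 2 (adjusted p = 0.0113) or without any of the 3 Rop7-III replicates (adjusted p between 0.0102 and 0.0139).

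*Ntrk3*, a neurotrophin receptor, ran the other way to *Ltk*. It stood at 4.81, 5.16 and 4.29 TPM for Rop7-I, 7.3, 11.1 and 7.53 TPM for Rop7-II, and 1.93, 2.29 and 2.92 TPM for Rop7-III. The clones did not overlap and Rop7-III was lowest. The log2(TPM + 1) difference was -1.50 (SE 0.17, limma adjusted p = 2.84e-04) for Rop7-III minus Rop7-II, a call that remained with each sample left out in turn. It was -0.77 (limma adjusted p = 0.0158) for Rop7-III minus Rop7-I and -0.73 (limma adjusted p = 0.0165) for Rop7-I minus Rop7-II, neither of which passed.

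The remaining abundant relatives were not called. *Lmtk2* held between 27.09 and 30.89 TPM in all 9 samples. *Tyro3*, a receptor for Gas6 and protein S that lies 37.3 kb from *Ltk*, averaged 8.86 ± 0.319 TPM for Rop7-I, 8.07 ± 1.34 TPM for Rop7-II and 11.5 ± 0.993 TPM for Rop7-III, with a log2 difference of 0.47 between Rop7-III and Rop7-II (limma adjusted p = 0.0156). *Erbb3* averaged 3.95, 4.07 and 5.58 TPM, and *Fgfr3* 3.55, 3.33 and 3.84 TPM. *Pdgfrb* averaged 2.54, 4.16 and 5.39 TPM, with a difference of 0.86 between Rop7-III and Rop7-I (limma adjusted p = 0.0156). *Fgfr1*, named after its values were seen, averaged 2.17, 3.13 and 4.52 TPM. Its difference of 0.80 between Rop7-III and Rop7-I had a limma adjusted p of 0.00303 but fell short of 2-fold with 1 TPM added, and with 0.1 TPM added it was 1.02 and was called.

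*Csf1r*, the receptor of macrophage growth factor and a close relative of *Kit*, varied with the myeloid markers. It stood at 2.16, 3.87 and 5.51 TPM for Rop7-I, 22.14, 1.82 and 7.77 TPM for Rop7-II, and 0.96, 1.11 and 1.62 TPM for Rop7-III. Within Rop7-II the markers of myeloid and dendritic cells summed to 754, 159 and 306 TPM in replicates 1 to 3, in the same order as *Csf1r*. Their part in the *Csf1r* level was not tested. Rop7-III minus Rop7-II was -1.91 (limma adjusted p = 0.0507) and was called without Rop7-II replicate 2 (-2.69, limma adjusted p = 0.00260), which raises the count of called receptors in this pair from 1 to 2. Without Rop7-II replicate 1, the sample with the highest myeloid sum, the difference was -1.17 (limma adjusted p = 0.0916) and was not called. *Csf1r* overlaps the tested gene *Hmgxb3* on the other strand, and reads of the 2 genes cannot be told apart there.

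**Figure D3:**
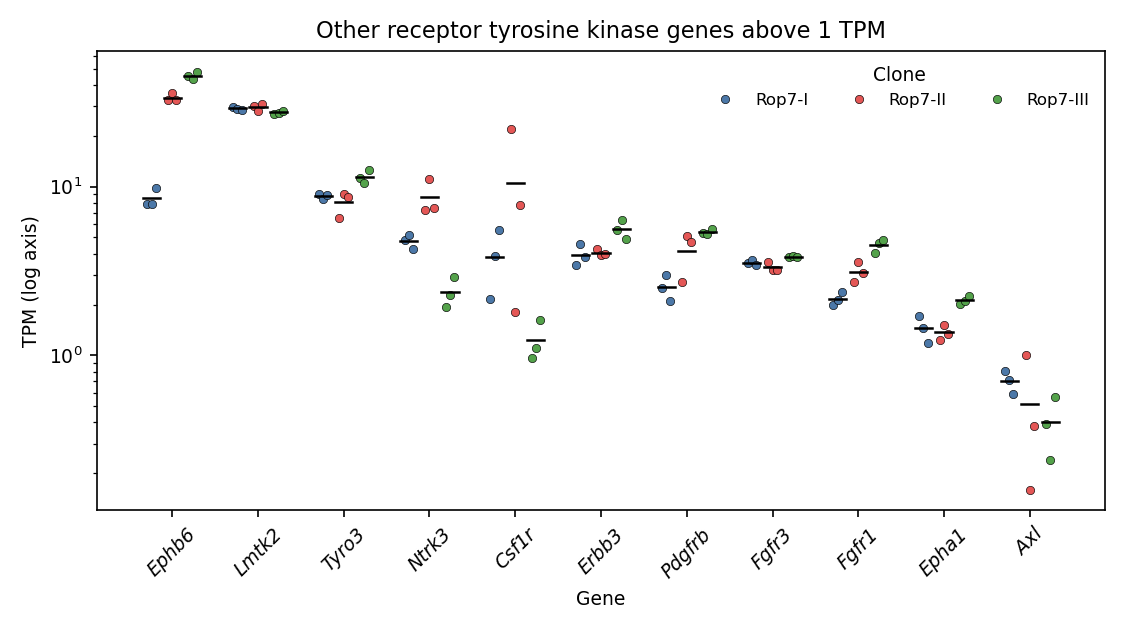
Level in TPM (vertical log axis) of the 11 other receptor tyrosine kinase genes above 1 TPM in at least 1 sample, ordered by mean. Points are samples, coloured by clone, and lines are clone means. *Ephb6* is lowest in Rop7-I, *Ntrk3* is lowest in Rop7-III, and *Csf1r* spreads from 1.82 to 22.14 TPM within Rop7-II.

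**Figure D4:**
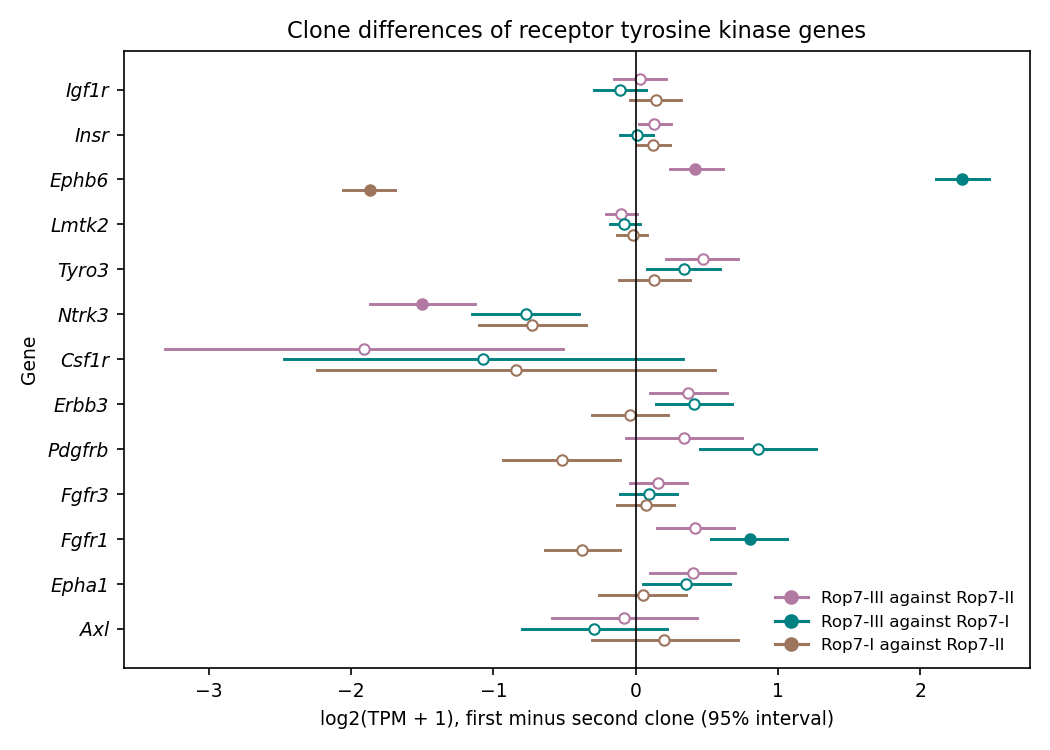
Differences in log2(TPM + 1) between clones (horizontal axis, first minus second clone) with 95% intervals from limma for *Igf1r*, *Insr* and the 11 other tested receptor tyrosine kinases. Filled points have an adjusted p under 0.01. The differences of *Igf1r* and *Insr* lie close to 0, whereas *Ephb6* reaches 2.29 between Rop7-III and Rop7-I and *Ntrk3* -1.50 between Rop7-III and Rop7-II.

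*Kit* is also known from other blood cells, whose markers were therefore summed. Of the 7 mast-cell markers, *Mcpt4* and *Tpsb2* were listed at 0 in all samples and 3 were tested. Their sum was 10.2 to 13.0 TPM for Rop7-I, 8.88 to 18.1 TPM for Rop7-II and 6.97 to 8.30 TPM for Rop7-III. *Ms4a2* was the largest part of it in every sample, at 5.98 to 8.35 TPM. *Hdc*, *Cpa3*, *Cma1* and *Fcer1a* reached at most 5.77, 3.11, 0.98 and 0.51 TPM, all for Rop7-II replicate 1. The 7 markers of blood progenitors and innate lymphoid cells, of which 3 were tested, summed to 4.26 to 5.80 TPM, 2.62 to 9.01 TPM and 2.24 to 2.47 TPM in the 3 clones. Within Rop7-II, replicate 1 had the highest sums of both lists (18.1 and 9.01 TPM) and a *Kit* level of 10.32 TPM, beside 10.5 TPM in replicate 2. The part of such cells in the *Kit* level was not tested.

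For *Ddr1*, the epithelial and stromal markers were low. *Krt8*, *Col3a1* and *Dcn* were listed at 0 in all samples and 2 of the 8 markers were tested. The sum was 2.09 to 3.00 TPM for Rop7-I, 1.28 to 4.62 TPM for Rop7-II and 0.850 to 1.13 TPM for Rop7-III. In Rop7-II the sums of replicates 1 to 3 were 4.62, 1.28 and 1.32 TPM, where *Ddr1* was 18.34, 5.65 and 23.17 TPM. The myeloid sum of 754, 159 and 306 TPM was also lowest in replicate 2. The part of either kind of cell in the *Ddr1* level was not tested.

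Over all tested genes, 2.48% were called in at least 1 pair of clones. Within 1 Mb of *Kit*, 0 of 9 tested genes were called in any pair, as were 0 of 21 near *Insr*, numbers too small to differ visibly from that share. Of 39 near *Ltk*, *Nusap1*, a gene of the mitotic spindle 100 kb away, was called. It stood at 0.92, 1.41 and 1.26 TPM for Rop7-I, 0.69, 1.11 and 0.66 TPM for Rop7-II and 3.53, 4.63 and 4.52 TPM for Rop7-III. Rop7-III was therefore highest, as for *Ltk*. The log2 differences were 1.52 from Rop7-II (limma adjusted p = 2.21e-04) and 1.25 from Rop7-I (limma adjusted p = 0.00143, lost without Rop7-III replicate 2 at 0.0106). Of 8 near *Igf1r*, *Arrdc4*, which encodes an arrestin-like protein and lies 503 kb away, stood at 4.57, 3.58 and 4.45 TPM for Rop7-I, 0.75, 0.75 and 0.73 TPM for Rop7-II and 1.78, 2.42 and 1.62 TPM for Rop7-III. It was called between Rop7-I and Rop7-II (1.57, limma adjusted p = 1.54e-04).

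*Ddr1* lies within the major histocompatibility complex (MHC), where 75 tested genes stood within 1 Mb and 3 were called in some pair, *Lta*, *H2-Q7* and *Mir8094*, beside 2.48% of all tested genes. *Lta*, which encodes the cytokine lymphotoxin alpha, stood at 6.64, 6.28 and 8.03 TPM for Rop7-I, 15.6, 7.91 and 13.53 TPM for Rop7-II and 3.9, 5.23 and 4 TPM for Rop7-III. *H2-T10*, a class I-like gene, stood at 30.68, 29.4 and 31.53 TPM for Rop7-I, 46.6, 29.15 and 51.65 TPM for Rop7-II and 20.3, 19.88 and 20.42 TPM for Rop7-III. In both genes, as in *Ddr1*, Rop7-III was lowest and Rop7-II replicate 2 lay near or within the Rop7-I samples. Rop7-III minus Rop7-II was -1.27 (limma adjusted p = 0.00272) for *Lta*. For *H2-T10*, named after its values were seen, it had a limma adjusted p of 0.00279 but fell just short of 2-fold. The call of *Lta* was lost without Rop7-II replicate 3, Rop7-III replicate 1 or Rop7-III replicate 3 (adjusted p between 0.0113 and 0.0138). *H2-Q7*, a class I-like gene, fell in Rop7-III against Rop7-II (-3.31, limma adjusted p = 0.00284, lost without Rop7-II replicate 3 or Rop7-III replicate 2) and against Rop7-I (-2.96, limma adjusted p = 0.00939, lost in 7 of the 9 fits that left out 1 sample). *Mir8094* was called between Rop7-I and Rop7-II (1.53, limma adjusted p = 0.00546) and lost the call without any of the 3 Rop7-I replicates or without Rop7-II replicate 3. *Mir8094* lies wholly within the tested gene *Ddx39b*, and reads of the 2 genes cannot be told apart there.

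The split of Rop7-II replicate 2 from replicates 1 and 3 was shared by other genes around *Ddr1*. This was noticed after the values were seen and is a description. In Rop7-II, replicates 1 and 3 both lay at least 1.5-fold below replicate 2, with 1 TPM added, in 11 of the 75 genes (14.7%), beside 79 of all 12115 tested genes (0.652%). They both lay as far above replicate 2 in 3 of the 75 (4%), beside 188 of all (1.55%). The 3 higher genes were *Lta*, *Atp6v1g2* and *H2-T10*. The 11 lower genes were *Msh5*, *H2-Q1*, *H2-Q2*, *H2-Q6*, *H2-Q10*, *H2-Bl*, *Gm8801*, *Gm11127*, *C920025E04Rik*, *Gm7030* and *Gm8909*. *H2-Q2* stood at 139.51, 297.8 and 143.67 TPM for Rop7-II replicates 1 to 3 and at 311.93, 306.05 and 310.59 TPM for Rop7-I, and *Msh5*, a meiotic mismatch-repair gene, at 7.37, 13.7 and 7.05 TPM beside 16.3, 13.6 and 15.36 TPM. In both genes replicate 2 of Rop7-II was close to or within the Rop7-I range and replicates 1 and 3 were not. The H2-Q, H2-T and other class I-like genes of this region include near-identical copies, so their separate levels are uncertain. Such copies can share reads, so the 11 genes are not 11 separate observations, and the share of 14.7% does not count independent neighbours. Near the other members, 0 of 9 genes around *Kit*, 1 of 39 around *Ltk*, 0 of 8 around *Igf1r* and 1 of 21 around *Insr* were lower in this way. The cause was not tested.

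**Figure D5:**
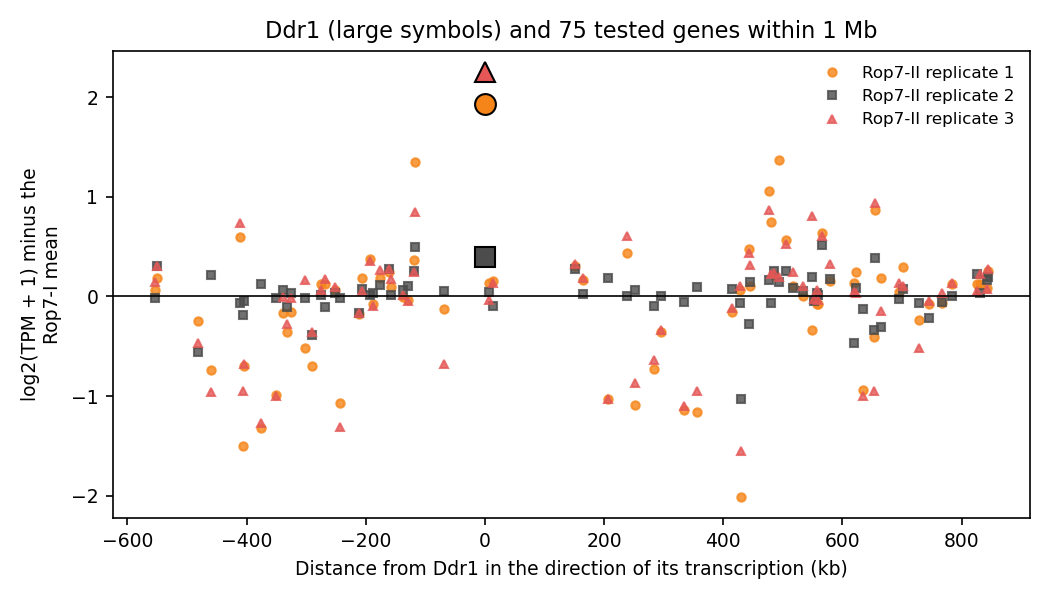
Each of the 3 Rop7-II samples minus the Rop7-I mean in log2(TPM + 1) (vertical axis) for *Ddr1* (large symbols) and the 75 tested genes within 1 Mb, by distance along the direction of its transcription (horizontal axis, kb). Replicates 1 and 3 lie well above replicate 2 at *Ddr1* and well below it at 11 of the 75 genes.

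The genes whose levels were most like those of *Kit*, *Ltk* and *Ddr1* over the 9 samples were found by Pearson's r of log2(TPM + 1) among all tested genes. These values describe 9 samples that fall into 3 clones, and carry no p. For *Kit* they were *2810021J22Rik* (r = 0.988), *Ephb6* (0.987) and *Sord*, which encodes sorbitol dehydrogenase (0.985). *2810021J22Rik* averaged 20.7, 50.0 and 52.1 TPM for Rop7-I, Rop7-II and Rop7-III, and *Sord* 4.16, 14.1 and 19.3 TPM. Both were clearly present in Rop7-I, as was *Ephb6*, unlike *Kit*. For *Ltk* they were *Dusp4*, a phosphatase of MAP kinases (0.988), *6530402F18Rik* (0.983) and *Ccl5*, a chemokine of effector and memory T cells (0.982). *Dusp4* averaged 1.17, 0.667 and 4.33 TPM, and *Ccl5* 7.74, 4.14 and 28.8 TPM. For *Ddr1* they were *H2-K1*, a classical class I gene 1.68 Mb away (0.985), *Mbd3* (0.982) and *Pmf1* (0.980). *H2-K1* stood at 2959.07, 2257.47 and 3078.86 TPM for Rop7-II and at 2144.33 to 2189.67 TPM for Rop7-I, so that replicate 2 was the one nearest to Rop7-I. *Mbd3* and *Pmf1* had the same order of replicates within Rop7-II. All 3 genes were picked for likeness to *Ddr1* over these 9 samples. A shared order of replicates follows from that choice and is no separate observation.

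Most adaptors and attenuators listed for these receptors exceeded 1 TPM in at least 1 sample. Of 34 genes listed, 26 were tested, 1 was listed at 0 throughout and 7 were above 0 without passing 1 TPM. By limma, 0 were called in each pair, although 14, 10 and 9 had an unadjusted p under 0.05 between Rop7-III and Rop7-II, Rop7-III and Rop7-I, and Rop7-I and Rop7-II, beside the 37.8%, 28.0% and 32.1% of all tested genes given above. At an adjusted p under 0.01 with no fold limit, 6, 2 and 2 passed (3, 2 and 0 in fits to the 2 clones compared, and 4, 2 and 1 with the replicate number as a block), beside the 12.3%, 4.85% and 7.53% of all tested genes given above. The samples did not overlap for 14, 13 and 10 of the 26 (53.8%, 50.0% and 38.5%), beside 40.7%, 38.2% and 35.0% of all tested genes. The median log2 difference of the 26 was -0.01, 0.04 and -0.03.

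*Lrig1*, a membrane protein that limits several receptor tyrosine kinases, had the largest difference among those that passed. It stood at 19.09, 17.78 and 19.83 TPM for Rop7-I, 23.8, 23.19 and 26.3 TPM for Rop7-II, and 11.49, 12.35 and 11.95 TPM for Rop7-III. The 3 clones did not overlap, and Rop7-III was lowest. Rop7-III minus Rop7-II was -0.97 on the log2(TPM + 1) scale (SE 0.07, limma adjusted p = 1.90e-05), just under 2-fold, and Rop7-III minus Rop7-I was -0.62 (limma adjusted p = 5.01e-04). With 0.1 TPM added the first was -1.03 and *Lrig1* was called, as it also was without Rop7-II replicate 2 (-1.01). Rop7-I minus Rop7-II was -0.35 (limma adjusted p = 0.00675), which no longer passed with any 1 sample left out (adjusted p between 0.0107 and 0.0298). *Lrig1* overlaps the tested gene *Slc25a26* on the other strand, and reads of the 2 genes cannot be told apart there.

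*Cblb*, a ubiquitin ligase that removes activated receptors and restrains T-cell activation, was lowest in Rop7-II. It stood at 77.2, 82.14 and 76.67 TPM for Rop7-I, 54.35, 57.71 and 63.97 TPM for Rop7-II, and 80.93, 78.91 and 84.25 TPM for Rop7-III. Rop7-II lay below both other clones, which overlapped each other. Rop7-III minus Rop7-II was 0.47 (limma adjusted p = 5.84e-04) and Rop7-I minus Rop7-II was 0.42 (limma adjusted p = 0.00160, and 0.0120 in a fit to these 2 clones alone). *Ptprf*, a receptor phosphatase, averaged 5.57, 5.28 and 3.04 TPM for Rop7-I, Rop7-II and Rop7-III, with a difference of -0.64 between Rop7-III and Rop7-II (limma adjusted p = 0.00358). Its difference between Rop7-III and Rop7-I was -0.71 (limma adjusted p = 0.00439). That one failed to pass without Rop7-I replicate 1, 2 or 3 or Rop7-III replicate 2 or 3 (adjusted p between 0.0110 and 0.0246). Smaller differences between Rop7-III and Rop7-II passed in *Frs2*, an adaptor of growth factor receptors (0.26, limma adjusted p = 0.00110), and *Igf2r*, which clears insulin-like growth factor (0.22, limma adjusted p = 0.00543). With each sample left out in turn, this difference failed to pass in 5 of 9 fits for *Igf2r* and in 3 of 9 for *Ptprf* (adjusted p up to 0.0233 and 0.0128).

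Of the adaptors closest to insulin and insulin-like growth factor receptors, *Irs2* stood between 27.36 and 33.09 TPM in all 9 samples while *Irs1* did not exceed 0.15 TPM. *Shc1* averaged 68.1 TPM for Rop7-I, 70.3 TPM for Rop7-II and 63.7 TPM for Rop7-III, and *Grb2* stood between 129.64 and 149.06 TPM in the 9 samples. The difference of *Shc1* between Rop7-III and Rop7-II (-0.14, limma adjusted p = 0.00748) no longer passed with any 1 sample left out (adjusted p between 0.0112 and 0.0299). *Irs1* and *Irs2* were named after their values were seen.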

How the data were processed

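Polyadenylated RNA of 9 samples of sorted CD8 T cells, 3 biological replicates of each of 3 clones as labelled, was sequenced by the authors in libraries without strand information. The authors quantified RefSeq genes of the mouse build mm10 with RSEM 1.2.11 and deposited TPM per gene and sample, a unit corrected for gene length whose total was 999999.6 to 1000001 in each sample. DESeq2 1.8.1, used by the authors on counts, does not apply to TPM. TPM hold no counts, so the depth is unknown and counting error could not be computed. Between 11056 and 11494 genes exceeded 1 TPM in a sample.

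Values were taken as log2(TPM + 1), with 0.1 TPM added as a second scale, in R 4.3.3. Genes with a TPM over 1 in at least 1 sample (12115) were fitted with limma 3.58.1 to the 9 samples together, with the spread following mean expression and without a block. Adjustment of p within each pair of clones was by Benjamini and Hochberg. Calls needed an adjusted p under 0.01 and at least 2-fold. The fit was tested on simulated data. Exact permutation tests were two-sided. The members, lists and tests were chosen with earlier results of these data known. Named were the members, the 8 most abundant other receptor tyrosine kinases and any called, ligands over 1 TPM, up to 5 adaptors or attenuators with the smallest adjusted p in each pair, called genes within 1 Mb of a member, and the 3 genes most like *Kit*, *Ltk* and *Ddr1*. Gene positions are from GENCODE or RefSeq on GRCm38. Alternatives were other amounts of TPM added, filters, scalings and limits, no trend, a fit to 2 clones alone, the replicate number as a block, and each sample left out in turn. The labels do not say whether replicate numbers pair the samples.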

Additional observations from a re-analysis of the deposited data

How the results depend on the processing

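Between Rop7-III and Rop7-II, leaving out each sample gave 1 to 2 called receptor tyrosine kinases (2 without Rop7-II replicate 2, where *Csf1r* was added) and 0 to 1 adaptors or attenuators, which was *Grb7* (1.11, limma adjusted p = 0.00618) without Rop7-II replicate 1 and *Lrig1* without Rop7-II replicate 2. With no fold limit, 2 receptors and 6 adaptors or attenuators passed in this pair, 2 and 2 between Rop7-III and Rop7-I, and 2 adaptors or attenuators between Rop7-I and Rop7-II. With 0.1 TPM added, 2 receptors were called between Rop7-III and Rop7-I, and 1 adaptor or attenuator between Rop7-III and Rop7-II, as also with 0.5 TPM added. *Igf1r* and *Insr* had 0 of 108 values under other settings with an adjusted p under 0.01. The sign of *Igf1r* turned between Rop7-III and Rop7-II without Rop7-II replicate 1 (-0.05) or Rop7-III replicate 2 (-0.02), within a leave-one-out range of -0.05 to 0.09. That of *Insr* turned between Rop7-III and Rop7-I in 3 such fits (-0.01, -0.01 and -0.03, range -0.03 to 0.04). *Kit*, *Ltk* and *Ddr1* turned in 0 of 159, but they were picked for clone differences in these same values, so nothing is read from this count. *Kit* could not be fitted where every sample had to reach 1 TPM, which leaves it out.

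The labels do not say whether samples with the same replicate number belong together. Deviations of such samples from their clone means correlated between -0.39 and 0.11. With 3 samples per clone, these values cannot show whether samples were handled together. With the replicate block, *Igf1r* and *Insr* differed by 0.03 and 0.13 between Rop7-III and Rop7-II (limma adjusted p = 0.808 and 0.0692), and each pair had 1 called receptor and 0 called adaptors or attenuators, as without it. Some differences under 2-fold no longer had an adjusted p under 0.01: between Rop7-III and Rop7-II *Ephb6* (0.0110), *Igf2r* (0.0154) and *Shc1* (0.0189), and between Rop7-I and Rop7-II *Lrig1* (0.0126). Without a fold limit this leaves 1 receptor (2 without the block) and 4 adaptors or attenuators (6 without it) in the first of these pairs, and 1 adaptor or attenuator (2 without it) in the second. The number of reads behind low levels, such as *Kit* in Rop7-I, is not kept in TPM and limits what can be said of them.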
